A study of Mus musculus with 28 samples.

Results

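The genes described here encode the MEF2 transcription factors (Mef2a, Mef2b, Mef2c and Mef2d), serum response factor (Srf), its actin-sensing coactivators (Mkl1 and Mkl2, now also named Mrtfa and Mrtfb) and its ternary complex factor partners (Elk1, Elk3 and Elk4). They were chosen by name, and all 10 were found among the 22919 genes of the authors' deposited comparison tables. MEF2 proteins and SRF share a MADS-box DNA-binding domain and recognise AT-rich sequence, the MEF2 site and the CArG box. In neurons, calcium entry activates both: calcineurin and the export of class IIa histone deacetylases free MEF2 to act, ERK phosphorylates the Elk proteins that sit beside SRF, and the Mkl coactivators enter the nucleus once released from monomeric actin. The best known target genes are synaptic and immediate-early genes and genes of the actin cytoskeleton.

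Nascent RNA was measured by Bru-seq, in which bromouridine is built into new RNA, captured with an antibody and sequenced, so a value reports transcription during the label and not the amount of protein or its activity. The cultures came from cortex and hippocampus of CD1 mouse embryos at embryonic day 18, each replicate being a pool of embryos of balanced sex, and held neurons, astrocytes and oligodendrocyte precursor cells. On day 14 in vitro they were infected with lentivirus that expressed either a control hairpin (shCtrl) or one targeting Rai1 (shRai1), a chromatin regulator. On day 17 the cells received vehicle (water), tetrodotoxin (TTX, 1 µM), which blocks sodium channels and silences the network, or bicuculline (BIC, 20 µM), which blocks inhibition and raises activity, for 4 hours, with 2 mM bromouridine in the last 20 minutes. The 16 libraries formed 6 groups, with 2 libraries each for shCtrl vehicle and shCtrl BIC and 3 in each of the other groups. By their titles the shCtrl vehicle libraries are replicates 1 and 2, and the shCtrl BIC libraries are replicates 2 and 3. The labels do not say whether libraries with the same replicate number share a pool of embryos. A difference between pools may therefore enter the changes with BIC in shCtrl.

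The values analysed here are summaries over libraries, so the depth of each library is unknown and the error of a log2 change is the standard error (SE) in the authors' deposited tables. All cultures carried a virus and an shRNA. Nascent Rai1 was not called between the libraries labelled shRai1 and shCtrl: per the authors' deposited tables its log2 change was 0.16 (SE 0.073, adjusted p = 0.357) with vehicle, -0.12 (SE 0.064, adjusted p = 1.00) with TTX and 0.03 (SE 0.073, adjusted p = 1.00) with BIC, and nascent RNA does not measure the loss of finished mRNA. In the shCtrl arm the pooled FPKM of 18 neuron markers summed to 1077 with vehicle, 979 with TTX and 1314 with BIC. The 14 astrocyte markers summed to 376, 313 and 295 FPKM, the 14 oligodendrocyte-lineage markers to 221, 195 and 221, the 13 microglia markers to 28.3, 28.5 and 36.1, and the 14 endothelial and mural markers to 5.96, 7.25 and 7.18, with Cldn5 at 0. In such a mixed culture fewer cells of a type and less RNA per cell cannot be told apart.

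The Srf promoter is shown first because it was the only promoter window of the 10 genes with a CArG box, and Srf also had the largest absolute log2 change summed over the 4 comparisons of a drug with vehicle. The window covers the 250 bases before the transcription start on the minus strand, chr17:46556163-46556412 in RefSeq's annotation of GRCm38.p6. Capitals mark, from 5′ to 3′, the ETS core CCGGAAG, whose first base lies 122 bases before the start, and CArG boxes that begin 82 and 62 bases before it.
Srf: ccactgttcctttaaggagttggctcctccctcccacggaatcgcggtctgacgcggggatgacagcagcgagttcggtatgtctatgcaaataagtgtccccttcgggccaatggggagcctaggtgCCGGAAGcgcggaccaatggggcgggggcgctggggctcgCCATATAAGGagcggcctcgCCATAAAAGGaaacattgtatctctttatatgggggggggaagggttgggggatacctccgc
SRF binds CArG boxes and the Elk proteins bind ETS cores beside them. Here the match of letters is a description of the sequence and does not show that either protein was bound.

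The other matches in windows from 250 bases before to 50 bases after each start are shown to compare the genes with Srf, each with its motif in capitals. Elk4 (chr1:132007542-132007571, plus strand) held CCGGAAG 68 bases before a start, Mef2a (chr7:67372841-67372870, minus strand) held a MEF2 site that crosses its start, and Mkl2 (chr16:13358246-13358275, plus strand) held a MEF2 site 165 bases before 1 of its 3 starts.
Elk4: ggcccctcccCCGGAAGtgacgctcgcgct
Mef2a: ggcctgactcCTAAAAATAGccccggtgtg
Mkl2: gctagagattTTATTTTTAActgcttgact
Over the 32851 mouse windows in the RefSeq table, read on both strands, 1.63% held a CArG box, 3.19% a MEF2 site and 8.86% CCGGAAG. The cyclic AMP response element TGACGTCA (1.79% of windows) had no match in the 17 windows of the 10 genes. Its shorter form TGACG, which also lies within TGACGTCA, was in 20.8% of all windows and matched in Srf, Elk4 and Mkl2.

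Srf and Mkl2 had the highest pooled FPKM of these genes in shCtrl vehicle, and Mef2b was close to 0. The authors' deposited table gives 1 pooled FPKM (fragments scaled by gene length and library size) per condition with a lower and an upper bound and no replicate spread. Srf had 45.3 FPKM (bounds 34.9 to 55.8), above 92.3% of the 12311 genes compared, whose median was 10.3 FPKM. Mkl2 followed with 41.8 (25.7 to 57.9), then Mef2c with 32.0 (24.6 to 39.5) and Mef2d with 31.4 (23.8 to 39.0).
On this scale the ternary complex factors had overlapping bounds, with 19.8 (15.0 to 24.7) for Elk3, 16.3 (12.2 to 20.4) for Elk4 and 14.9 (11.1 to 18.8) for Elk1. Mkl1, at 15.6 (10.7 to 20.5), and Mef2a, at 13.2 (9.99 to 16.4), lay in the same range. Mef2b stood alone at 0.650 (0 to 1.74). In this order each gene's bounds overlapped those of the next except between Mef2a and Mef2b, so no other pair of neighbours differed beyond the bounds.
The order was not the same on the other deposited scale. Mean normalized count over all libraries, divided here by the length of the authors' interval in kilobases, was highest for Mef2d (100.1) and Srf (90.7), followed by Elk4 (48.4), Mef2c (43.3), Mef2a (33.9), Mkl1 (29.2), Mkl2 (28.0) and Elk1 (22.4). Elk3, at 4.29, was close to Mef2b, at 2.94, and far below Elk1 and Elk4. The place of Elk3 and of Mkl2 among the 10 therefore depends on the scale, and Srf was first or second on both. Mef2b is also the only one of the 10 whose mean normalized count (43.3) was under 50, and its changes carry the widest errors below.

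In the authors' intervals, for which mm9 is the build named in the submitters' processing notes, the genes lie on separate chromosomes. Srf spans chr17:46683788-46693111, the shortest of the 10, and its interval overlaps the microRNA entry Mir6976. Mkl1 (chr15:80808195-81021187), the longest, overlaps Sgsm3, so some reads there may belong to the neighbour. The others are Mef2a (chr7:74376049-74517744), Mef2b (chr8:72676677-72691387), Mef2c (chr13:83643033-83806684), Mef2d (chr3:87946317-87973089), Mkl2 (chr16:13256574-13417622), Elk1 (chrX:20510521-20527734), Elk3 (chr10:92710161-92773904) and Elk4 (chr1:133904182-133922261). By its name, the authors' table counted the full length of each gene and not its exons alone.

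**Figure D1:**
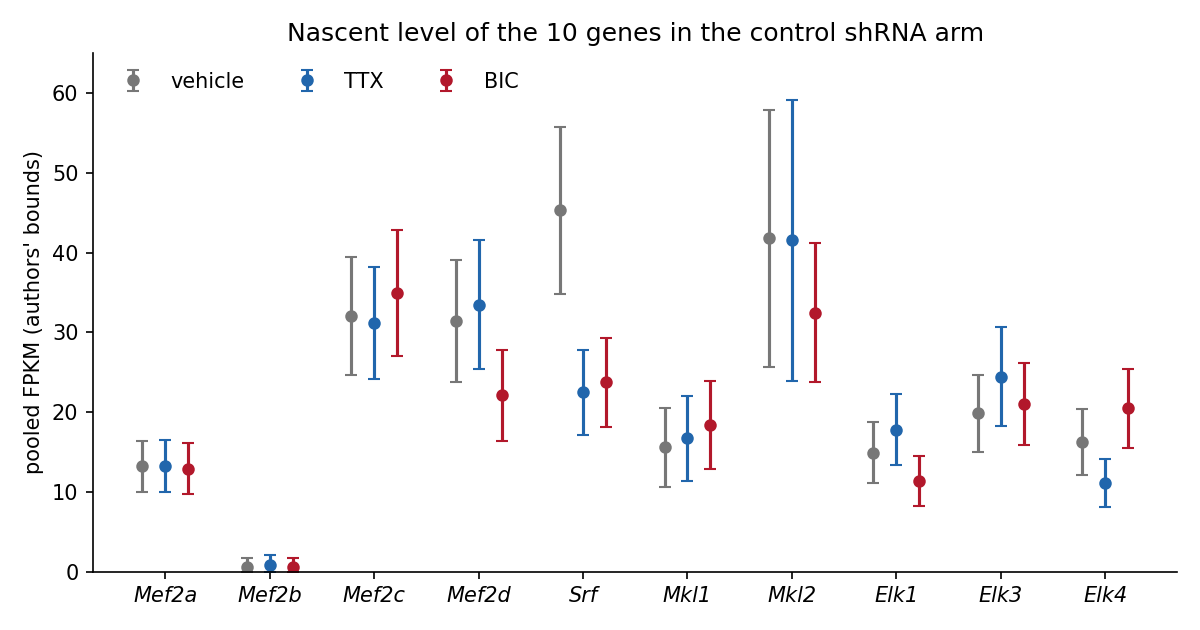
Pooled FPKM of each gene in the shCtrl arm in vehicle (grey), TTX (blue) and BIC (red), with the authors' lower and upper bounds as bars. Srf drops from 45.3 in vehicle to 22.5 in TTX and 23.8 in BIC with bounds that do not reach those of vehicle, Elk4 differs between TTX and BIC, and Mef2b lies near 0.

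Srf fell under silencing and under raised activity alike. Its pooled FPKM was 45.3 in vehicle, 22.5 (17.2 to 27.8) in TTX and 23.8 (18.2 to 29.3) in BIC. The bounds of both drug conditions lay below those of vehicle, which was so for no other gene of the 10. Over all 12311 genes the bounds failed to overlap for 2.01% with TTX and 6.2% with BIC. By the authors' deposited table the log2 change with TTX in shCtrl was -1.21 (SE 0.11, adjusted p = 1.15e-25), so that it fell by 56.9%. Among the 12333 genes whose mean normalized count reached 50, 184 had a lower change. With BIC the deposited log2 change was -1.02 (SE 0.12, adjusted p = 4.24e-15 in the authors' table), so that Srf fell by 50.7%, and 285 genes had a lower one.
The shRai1 arm shares no library with shCtrl but may share pools of embryos with it. There the authors' deposited tables gave -1.24 (SE 0.099, adjusted p = 9.63e-34) for TTX and -0.72 (SE 0.098, adjusted p = 1.58e-12) for BIC. Thus Srf was called lower in all 4 comparisons of a drug with vehicle, the only gene of the 10 for which this held. Within an arm the TTX and BIC comparisons share their vehicle libraries and are not independent.

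The ternary complex factors each took a course of their own. Elk4 fell with TTX and was not called with BIC. Its FPKM in vehicle, TTX and BIC was 16.3, 11.1 (8.11 to 14.2) and 20.5 (15.5 to 25.5), and the bounds of BIC lay above those of TTX (11.8% of all genes had bounds apart in this pairing). The authors' deposited tables gave a log2 change with TTX of -0.76 (SE 0.11, adjusted p = 7.03e-11) in shCtrl and -0.64 (SE 0.095, adjusted p = 4.87e-10) in shRai1. With BIC they gave 0.08 (SE 0.12, adjusted p = 0.679) and 0.19 (SE 0.094, adjusted p = 0.101). After centring on the median gene the BIC value in shRai1 rose to 0.22 and passed the threshold (adjusted p = 0.0477 by the Wald test with Benjamini-Hochberg adjustment, range over alternatives 0.0477 to 0.122).

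Elk3, a ternary complex factor that can repress as well as activate, went in opposite directions with the drugs in the authors' deposited tables. With TTX its log2 change there was -0.49 (SE 0.16, adjusted p = 0.0102) in shCtrl and -0.35 (SE 0.14, adjusted p = 0.0426) in shRai1. With BIC the tables gave 0.64 (SE 0.17, adjusted p = 7.61e-04) and 0.51 (SE 0.14, adjusted p = 6.35e-04). The pooled FPKM of Elk3 does not show the same course. It was 19.8 in vehicle, 24.4 (18.2 to 30.6) in TTX and 21.0 (15.8 to 26.1) in BIC, all with overlapping bounds, and the log2 ratio for TTX was 0.30 with a pseudocount of 0.1, the reverse of the deposited sign. For BIC the FPKM ratio was 0.08. The TTX call in shRai1 was also lost when p-values were adjusted over all genes tested (adjusted p = 0.0580 by Benjamini-Hochberg, range over alternatives 0.0358 to 0.0580).

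Elk1, a target of ERK phosphorylation, was higher with TTX in shCtrl and lower with BIC in both arms. Its FPKM was 14.9 in vehicle, 17.8 (13.4 to 22.3) in TTX and 11.4 (8.25 to 14.5) in BIC, with overlapping bounds throughout. The authors' deposited tables gave a log2 change with BIC of -0.54 (SE 0.13, adjusted p = 2.18e-04) in shCtrl and -0.47 (SE 0.10, adjusted p = 2.61e-05) in shRai1. It fell by 31.4% in the first and fell by 28.0% in the second. The TTX rise was near the threshold. It was 0.30 (SE 0.11, adjusted p = 0.0369) in shCtrl and 0.23 (SE 0.099, adjusted p = 0.0566) in shRai1 by the authors' deposited tables. Adjusting over all genes tested ended the shCtrl call (adjusted p = 0.0503 by Benjamini-Hochberg, range over alternatives 0.0303 to 0.0503), and centring added the shRai1 call (0.0467, range 0.0467 to 0.0770).

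The Mkl coactivators differed from each other with BIC. Mkl1 rose with BIC, by a log2 change of 0.44 (SE 0.072, adjusted p = 1.36e-08) in shCtrl and 0.42 (SE 0.056, adjusted p = 6.89e-13) in shRai1 by the authors' deposited tables. Mkl2 fell with BIC, at -0.36 (SE 0.088, adjusted p = 2.65e-04) and -0.17 (SE 0.069, adjusted p = 0.0407) in the same deposited tables of the authors. Both proteins bind monomeric actin through RPEL motifs. After centring on the median gene the smaller Mkl2 value became -0.13 and lost its call (adjusted p = 0.114 by the Wald test with Benjamini-Hochberg adjustment, range over alternatives 0.0310 to 0.114).
With TTX, Mkl1 was called only in shCtrl, where the authors' deposited table gave 0.19 (SE 0.064, adjusted p = 0.0146) against 0.11 (SE 0.056, adjusted p = 0.112) in shRai1, and the difference between the arms was not called (below). Mkl2 was called with TTX in neither arm, at 0.07 (SE 0.078, adjusted p = 0.575) and 0.15 (SE 0.069, adjusted p = 0.0964), both from the authors' deposited tables. In FPKM, Mkl1 was 15.6, 16.7 (11.4 to 22.0) and 18.4 (12.9 to 23.9), and Mkl2 was 41.8, 41.5 (24.0 to 59.1) and 32.5 (23.8 to 41.2) in vehicle, TTX and BIC. The conditions of both genes overlapped within these bounds, and the FPKM ratio of Mkl1 with BIC, 0.24 on the log2 scale with a pseudocount of 0.1, was smaller than the deposited change.

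Among the MEF2 genes, BIC raised Mef2c and lowered Mef2d, and none of the 4 was called with TTX. Mef2c, the family member best known from cortical neuron development and synapse number, had log2 changes with BIC of 0.67 (SE 0.22, adjusted p = 0.00766) in shCtrl and 0.83 (SE 0.18, adjusted p = 1.80e-05) in shRai1 by the authors' deposited tables. These are rises of 59.6% and 77.5%. Its FPKM showed a smaller difference, from 32.0 in vehicle to 31.2 (24.2 to 38.2) in TTX and 35.0 (27.1 to 42.8) in BIC, a log2 ratio of 0.13 for BIC with a pseudocount of 0.1, and the bounds overlapped. Neuron markers moved with BIC too, with 11 of 18 called higher and 4 lower in shCtrl, and 12 higher and 4 lower in shRai1. Their part in the Mef2c result was not tested.
Mef2d, which is expressed broadly in mature neurons, was lower with BIC and fell by 29.8% in shCtrl (log2 change -0.51, SE 0.11, adjusted p = 4.32e-05) and fell by 27.2% in shRai1 (-0.46, SE 0.089, adjusted p = 1.68e-06), both from the authors' deposited tables. With TTX the authors' deposited tables gave Mef2d -0.09 (SE 0.10, adjusted p = 0.591) in shCtrl and -0.21 (SE 0.089, adjusted p = 0.0597) in shRai1. In FPKM it was 31.4, 33.5 (25.4 to 41.5) and 22.1 (16.4 to 27.8), and the low value is that of BIC. Mef2a was not called in any of the 4 comparisons, with log2 changes from -0.12 to 0.10 in the authors' deposited tables and 13.2, 13.3 and 13.0 FPKM. Mef2b was not called either, with changes from -0.21 to 0.25 in these deposited tables of the authors and SEs from 0.24 to 0.29.

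**Figure D2:**
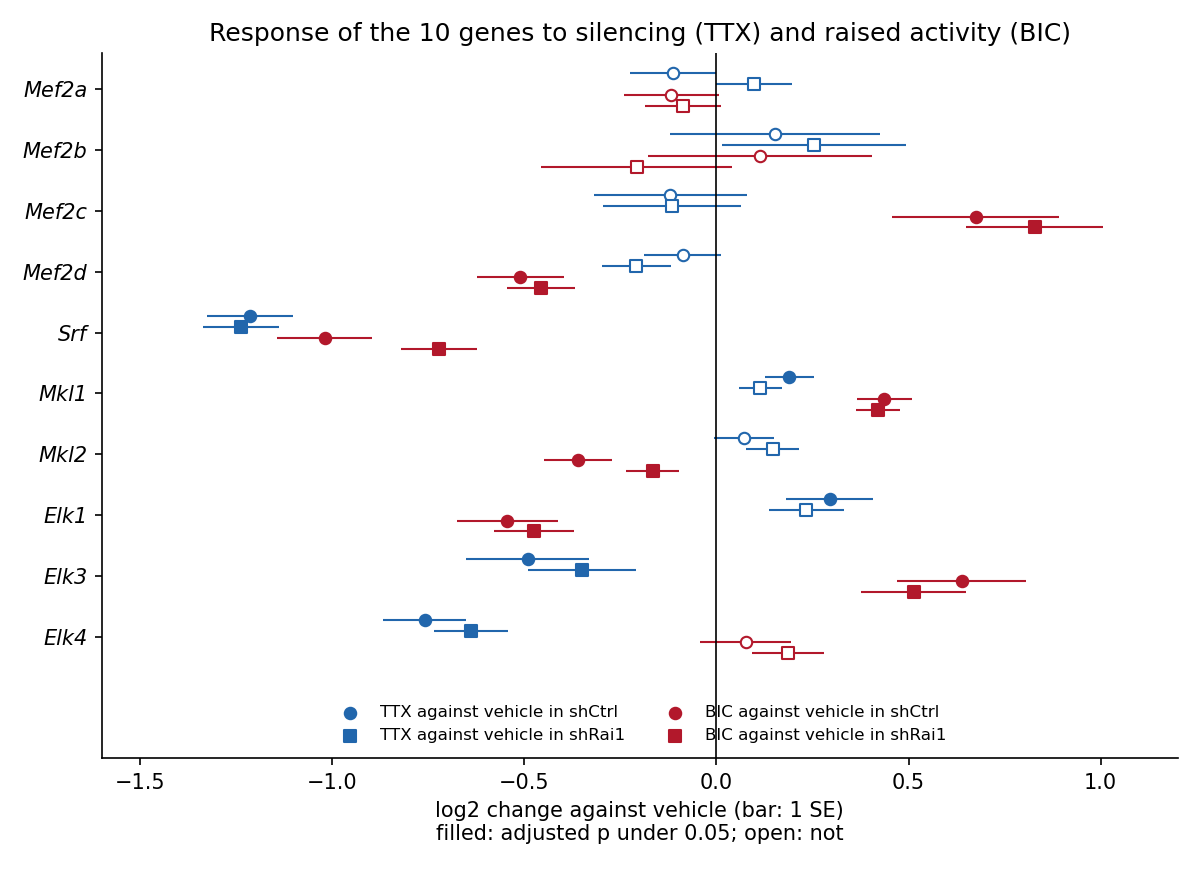
Log2 change of each gene against vehicle in the authors' deposited tables, for TTX (blue) and BIC (red) in shCtrl (circles) and shRai1 (squares), with bars of 1 SE and filled symbols for an adjusted p under 0.05. Srf is the only gene with all 4 symbols filled on the left of 0, Elk3 has both blue symbols left (its FPKM ratio for TTX, 0.30, has the opposite sign) and both red ones right, and the shRai1 symbols lie near the shCtrl ones.

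The share of the 10 genes that was called lay above the share over all genes with BIC in both arms and with TTX in shCtrl, and near it with TTX in shRai1. The share over all genes also takes in genes with a mean count under 50, and of the 10 only Mef2b was under it. A share among genes of like count was not computed, and the part of the counts in this difference was not tested. The TTX counts depended on the threshold. At an adjusted p under 0.01 TTX called 2 of the 10 in shCtrl, and under 0.1 it called 6 in shRai1. The share of all genes called was not computed at these other thresholds. Whether the TTX counts there lie above or near that share is therefore unknown. In the authors' deposited table for TTX in shCtrl 5 of the 10 were called, beside 26.7% of all genes, with 2 higher (11.8% of all genes) and 3 lower (14.9%). For TTX in shRai1 the deposited table called 3 of the 10, beside 30.5% of all genes, with 0 higher (13.7%) and 3 lower (16.8%). BIC called 7 of the 10 in each arm in the authors' deposited tables, 3 higher and 4 lower. In shCtrl 34.4% of all genes were called with BIC (17.4% higher, 17% lower), and in shRai1 42.5% (21.3% higher, 21.3% lower). The 7 were Mef2c, Mef2d, Srf, Mkl1, Mkl2, Elk1 and Elk3 in both arms. The median log2 change of the 10 in shCtrl was -0.10 for TTX and -0.02 for BIC, beside -0.01 and -0.04 over the 12333 genes with a mean count of at least 50.

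The mean of both arms gives the response with the smallest error, where the arms are taken as independent. The Wald test, two-sided and with p-values adjusted by Benjamini-Hochberg over 18241 genes, called 5 of the 10 with TTX (33.1% of all genes) and 7 with BIC (46% of all genes). For Srf this mean was -1.23 (SE 0.074) with TTX and -0.87 (SE 0.079) with BIC. Being lower with both drugs was seen in 3.15% of all genes. Mkl1, higher with both at 0.15 (SE 0.043) and 0.43 (SE 0.046), showed a pattern held by 1.75% of genes. Between these poles, Elk3 was lower with TTX, unlike its FPKM, and higher with BIC (-0.42 and 0.58, a pattern of 8.85% of genes), and Elk1 was higher with TTX and lower with BIC (0.26 and -0.51, 8.32%). Elk4 was lower with TTX alone (-0.70 and 0.13, 5.52%), though centring on the median gene moved its BIC mean to 0.17 and past the threshold. Mef2d and Mkl2 were called with BIC alone, both lower (12.2%), where Mef2d had a mean TTX response of -0.15 (95% interval -0.28 to -0.02, adjusted p = 0.0766 by the Wald test). Mef2c was higher with BIC alone (11.8%), and Mef2a and Mef2b were called with neither (43.0%).

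**Figure D3:**
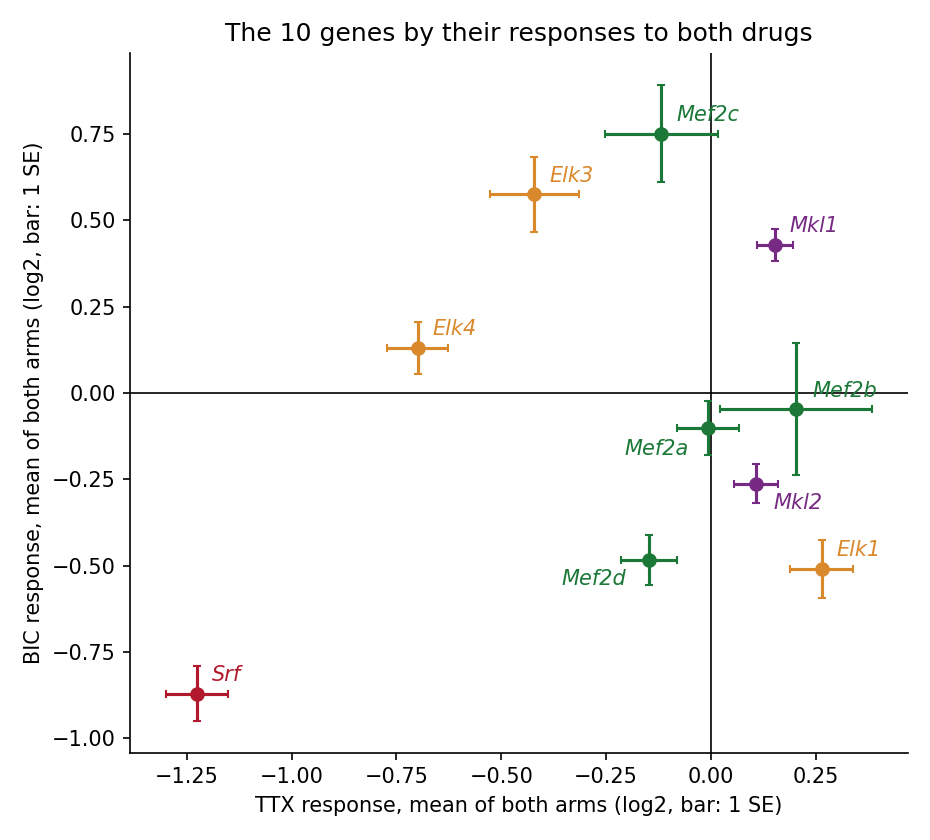
TTX response (x axis) and BIC response (y axis) of each gene, as the mean log2 change of both arms with bars of 1 SE, coloured by family (MEF2 green, Srf red, Mkl purple, Elk orange). Srf lies furthest to the lower left, Elk3 (whose FPKM ratio for TTX has the opposite sign) and Elk4 lie to the left of 0 and Elk1 to the right, and Mef2c and Mef2d lie on opposite sides of 0 for BIC.

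Setting the BIC response against the TTX response asks which genes differed between raised and silenced activity. The vehicle libraries are shared, so the standard error used is an upper bound and the Wald test is conservative. In shCtrl 7 of the 10 differed (32.4% of all genes) by this test with Benjamini-Hochberg adjustment. Elk4 was higher with BIC than with TTX by a log2 difference of 0.84 (SE at most 0.16), Mef2c by 0.79 (0.30) and Mkl1 by 0.25 (0.096). Elk3 had a difference of 1.13 (0.23) by this test, while its pooled FPKM ran the other way, at 24.4 with TTX and 21.0 with BIC. Elk1 was lower with BIC than with TTX at -0.84 (0.17), as were Mkl2 at -0.43 (0.12) and Mef2d at -0.42 (0.15). In shRai1 7 of the 10 differed as well (39.5% of all genes), with Srf called in place of Mef2d. There Elk3 differed by 0.86, Elk4 by 0.82, Mef2c by 0.94, Mkl1 by 0.31, Elk1 by -0.71 and Mkl2 by -0.31, each on the same side as in shCtrl. Srf was higher with BIC than with TTX by 0.52 (SE at most 0.14, adjusted p = 8.38e-04 by the Wald test) in shRai1, and in shCtrl the difference was 0.20 (95% interval -0.13 to 0.52, adjusted p = 0.441).

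Rai1 shRNA was compared with control shRNA to ask whether these genes depend on it, and none of the 10 was called in any of these comparisons. By the authors' deposited DESeq2 tables the log2 changes of the 10 ran from -0.17 to 0.22 in vehicle, from -0.14 to 0.32 in TTX and from -0.14 to 0.18 in BIC. The counts of 0 stand beside 0.857%, 0.0283% and 0.00944% of all genes called, and 0 of the 10 had an unadjusted p under 0.05 in any of the 3. The extremes on the high side in vehicle and TTX are those of Mef2b, the gene with the fewest counts. Without Mef2b the 95% intervals of the other 9 genes lay within -0.50 to 0.29 in vehicle, -0.46 to 0.41 in TTX and -0.43 to 0.43 in BIC. For Srf the authors' deposited tables gave -0.11 (SE 0.11) in vehicle, -0.14 (SE 0.10) with TTX and 0.18 (SE 0.11) with BIC, each within 2 SEs of 0. The smallest errors were those of Mkl1, with 0.01 (SE 0.064), -0.06 (SE 0.056) and -0.0047 (SE 0.063) in the authors' deposited tables. The lowest unadjusted p of the 3 comparisons was that of Mkl2 in vehicle (-0.13, SE 0.078, p = 0.0995, adjusted p = 0.566 by DESeq2 in the authors' deposited table).

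The drug responses of the 10 did not differ detectably between the arms. Taken as shRai1 minus shCtrl, the TTX response differed by -0.12 to 0.21 and the BIC response by -0.32 to 0.30, with 0 of the 10 called by the Wald test with Benjamini-Hochberg adjustment (0.943% and 0.0219% of all genes) and 0 with an unadjusted p under 0.05. The smallest p belonged to Srf, whose fall with BIC was -1.02 in shCtrl and -0.72 in shRai1. That difference of 0.30 (SE 0.16, 95% interval -0.01 to 0.61) had an unadjusted p of 0.0595 by the two-sided Wald test and an adjusted p of 1.00. So the calls of Mkl1 and Elk1 with TTX in shCtrl alone are not shown to be particular to that arm.

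**Figure D4:**
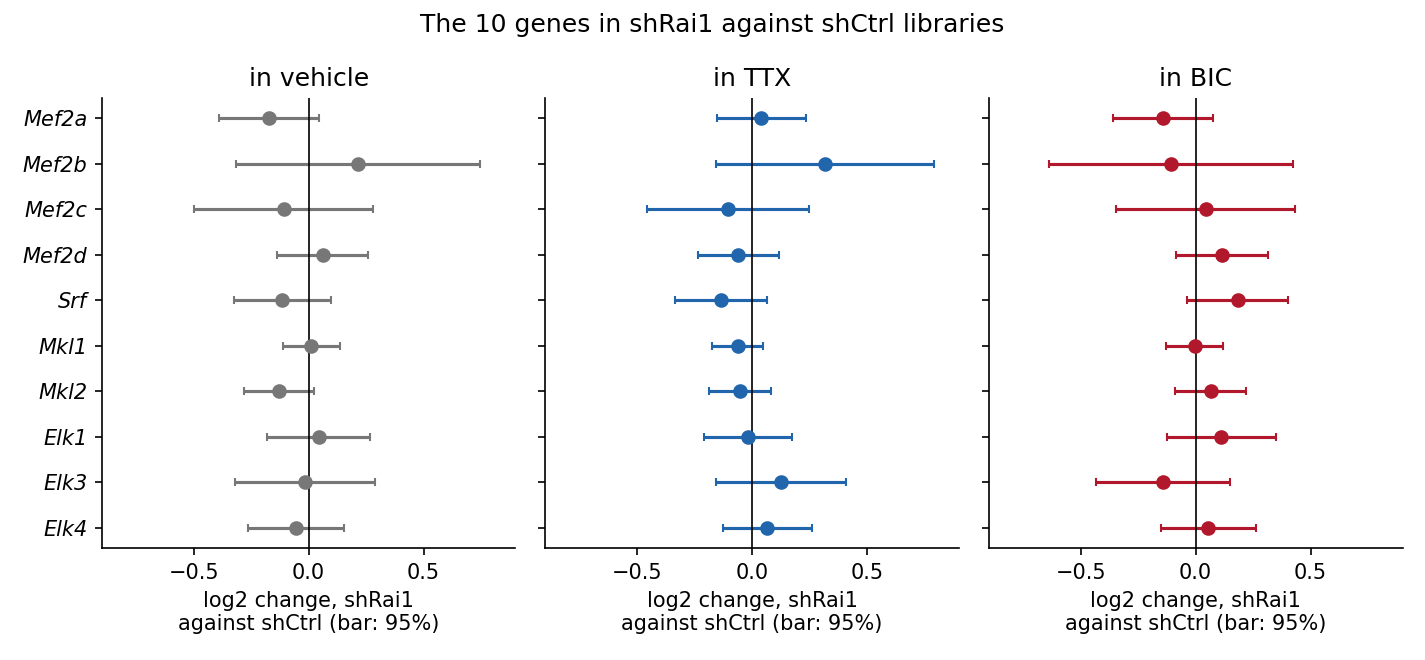
Log2 change of each gene in the libraries labelled shRai1 against shCtrl, in vehicle (grey), TTX (blue) and BIC (red), from the authors' deposited tables, with bars of 95%. Every bar crosses 0, and the widest bars are those of Mef2b.

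Among the regulators of MEF2, genes were called in both directions with each drug. Of 26 listed, which include class IIa histone deacetylases, calcineurin subunits and calmodulin-dependent kinases, the authors' deposited tables called 4 higher and 7 lower with TTX and 7 higher and 8 lower with BIC in shCtrl (medians -0.05 and -0.08). Over all genes 11.8% were called higher and 14.9% lower with TTX, and 17.4% higher and 17% lower with BIC. In shRai1 the authors' deposited tables called 1 of the 26 higher and 11 lower with TTX (13.7% and 16.8% of all genes), and 7 higher and 10 lower with BIC (21.3% of all genes each way). Hdac9, a class IIa deacetylase that binds MEF2, fell with TTX (-1.40, SE 0.20, adjusted p = 1.04e-10) and rose with BIC (0.92, SE 0.22, adjusted p = 1.87e-04) in these deposited tables of the authors. Sik1, a kinase that phosphorylates class IIa deacetylases, did the same with -1.40 and 0.77, and the deacetylase Hdac5 fell with TTX (-1.32). The scaffold gene Akap5 (-1.31) and the kinase gene Cdk5 (-0.79) fell with BIC, and Camk1g fell with TTX (-0.63), again by the authors' deposited tables.

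Genes listed as MEF2 targets were mostly called lower with TTX in shCtrl and higher with BIC in both arms. This list, like the others, was chosen with earlier results of these data known. Of 20, the authors' deposited tables called 1 higher and 12 lower with TTX (median -0.57) and 14 higher and 2 lower with BIC (median 0.51) in shCtrl. Beside these stand 11.8% of all genes higher and 14.9% lower with TTX, 17.4% and 17% with BIC, and medians of -0.01 and -0.04. In shRai1 the authors' deposited tables called 2 higher and 10 lower with TTX, with a smaller median of -0.26, and 14 higher and 2 lower with BIC (median 0.80). There 13.7% of all genes were higher and 16.8% lower with TTX, and 21.3% each way with BIC, with medians of -0.01 and -0.03. Neuron markers moved with BIC in the same deposited table of the authors, with 11 of 18 higher and 4 lower (median 0.49), and with TTX 3 were higher and 6 lower (median -0.13). Their part in the values of this list was not tested. With TTX the largest falls among those named were in Nr4a1 (-3.08, SE 0.25), an orphan nuclear receptor, Rgs2 (-2.97, SE 0.11), a regulator of G-protein signalling, Arc (-2.53, SE 0.23), a synaptic immediate-early gene, and Bdnf (-2.12, SE 0.14), a neurotrophin, in the authors' deposited table. With BIC, Klf4 (2.41), the protocadherin gene Pcdh17 (2.13) and Bdnf (1.41) rose while Adora2a, an adenosine receptor gene, fell (-3.65), per the authors' deposited table. None of the MEF2 genes was called lower with TTX and higher with BIC: Mef2c rose with BIC and was not called with TTX.

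Immediate-early genes listed as targets of SRF and ternary complex factors fell with TTX almost throughout. Of 20, the authors' deposited tables called 18 lower and 1 higher in shCtrl (median -2.09), and as many in shRai1, beside 14.9% and 16.8% of all genes lower. Npas4 (-3.92, SE 0.24), an activity-induced transcription factor, fell most among those named, beside Nr4a1, Fosb (-2.72) and Egr4 (-2.68) in the authors' deposited table. With BIC the list split, with 7 higher and 6 lower in shCtrl and 12 higher and 4 lower in shRai1 by the authors' deposited tables. The shares of all genes with BIC were 17.4% higher and 17% lower in shCtrl, and 21.3% each way in shRai1. Of 18 neuron markers the authors' deposited tables called 11 higher and 4 lower with BIC in shCtrl, and 12 higher and 4 lower in shRai1. With TTX they called 3 of these markers higher and 6 lower in shCtrl, and 2 higher and 6 lower in shRai1. The part of the neuron markers in the values of the immediate-early list was not tested. Cyr61 (1.73), a matricellular protein gene, and the phosphatase gene Dusp1 (1.63) were higher, while the zinc finger genes Egr3 (-1.97) and Egr2 (-1.49) were lower in the authors' table of shCtrl. Srf itself, which is also known as an SRF target, fell with BIC as Egr3 and Egr2 did.

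Cytoskeletal genes listed as targets of SRF and the Mkl coactivators were also called lower with TTX in 19 of 30 cases in shCtrl and 14 of 30 in shRai1. The authors' deposited tables called 0 higher with TTX in shCtrl (median -0.44), and 4 higher and 10 lower with BIC (median -0.08), beside 14.9% of all genes lower with TTX and 17% with BIC. In shRai1 the authors' deposited tables called 2 higher and 14 lower with TTX (median -0.46; 13.7% and 16.8% of all genes) and 5 higher and 6 lower with BIC (21.3% each way). Of 14 astrocyte markers 0 were higher and 6 lower with TTX in shCtrl and 1 higher and 4 lower with BIC, and of 14 oligodendrocyte-lineage markers 1 was higher and 4 lower with TTX and 0 higher and 2 lower with BIC, by the authors' deposited tables. With TTX in shRai1 these tables of the authors called 2 astrocyte markers higher and 1 lower, and 6 oligodendrocyte-lineage markers higher and 0 lower. The part of either marker list in the cytoskeletal values was not tested. By the DESeq2 test in that table, the falls with TTX included Ctgf (-2.01, SE 0.12), Vcl (-1.23, SE 0.11), which encodes the focal adhesion protein vinculin, Flna (-1.15, SE 0.11), which encodes the actin crosslinker filamin A, and Wdr1 (-1.09, SE 0.087), a cofactor of actin disassembly, all from the authors' deposited table. Vcl and Flna thus changed with TTX about as much as Srf did. With BIC, Thbs1 (2.73) and Tpm4 (1.15) rose and Fhl2 (-0.96) and Flna (-0.66) fell in the authors' deposited table. A CArG box like those of Srf lay in the promoter windows of 8 of the 23 matched cytoskeletal genes (34.8%, among them Actg1, Vcl and Fhl2). The same held for 2 of 13 matched immediate-early genes (15.4%, Egr2 and Dusp5) and 0 of 17 matched MEF2 targets, beside 1.81% of all genes. Only 23 of 30 cytoskeletal genes, 13 of 20 immediate-early genes and 17 of 20 MEF2 targets were matched to a window. The other listed genes were not searched, nor was sequence outside the windows. A listed gene without a match may therefore still have a CArG box elsewhere.

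The upstream regulators of SRF, its coactivators and its partners showed no single direction. Of 30 genes of upstream kinase pathways, actin signalling and cofactors, the authors' deposited tables called 4 higher and 8 lower with TTX and 7 higher and 9 lower with BIC in shCtrl (medians -0.03 and -0.13). The share higher with TTX in shCtrl was near that of all genes, 11.8%, beside 14.9% lower. With BIC 17.4% of all genes were higher and 17% lower there. In shRai1 the authors' deposited tables called 6 of the 30 higher and 9 lower with TTX (13.7% and 16.8% of all genes). With BIC in shRai1 they called 8 higher and 12 lower (21.3% of all genes each way). The kinase genes Rps6ka3 (-0.56) and Rock2 (-0.48) fell with TTX in the authors' deposited table, as did the SRF cofactor gene Fhl2 (-0.60). Rock2 (1.64) and Rps6ka3 (1.06) rose with BIC while Fhl2 (-0.96) and Mapk3 (-0.95), the gene of ERK1, fell, per the authors' deposited table. Fhl2 was therefore lower with both drugs in shCtrl, as were Srf and several other listed genes, among them Vcl, Flna, Egr2 and Egr3.

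**Figure D5:**
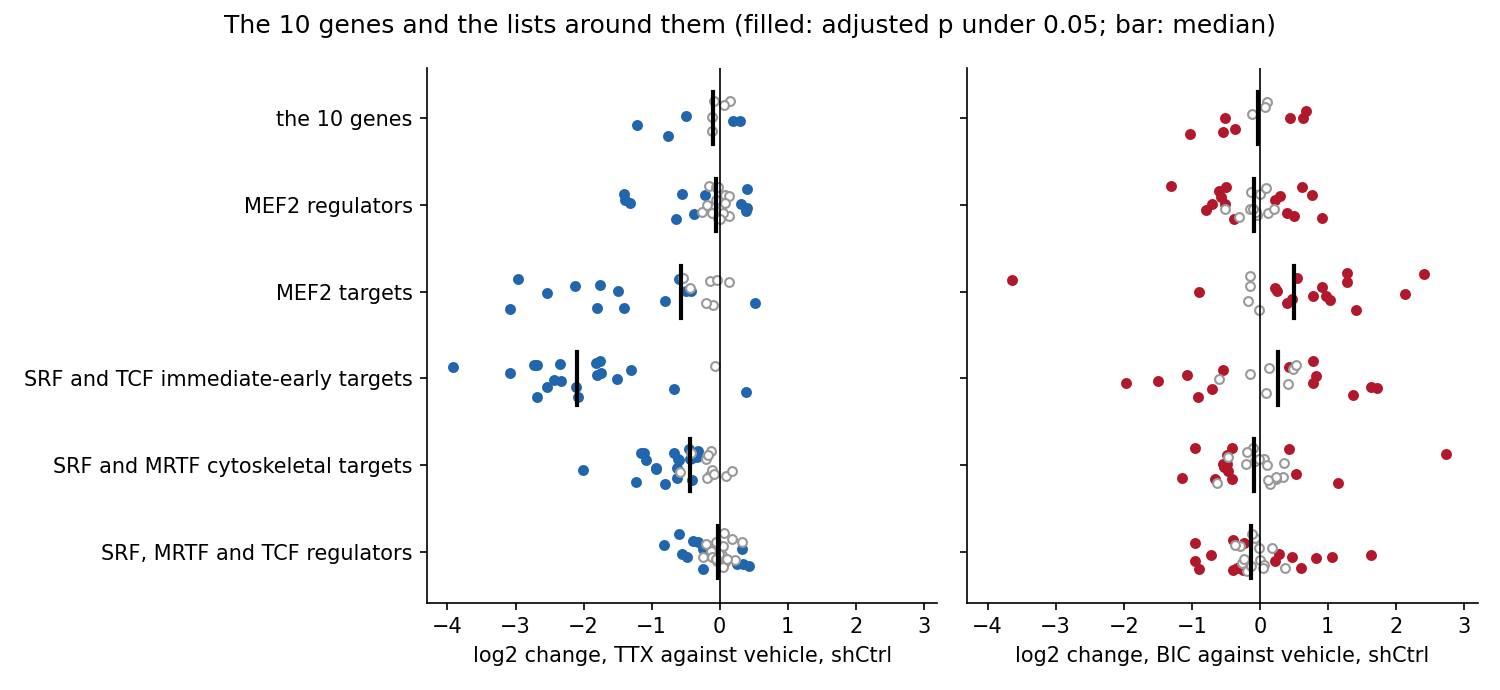
Log2 change of the 10 genes and of each listed gene with TTX (left) and BIC (right) in shCtrl, from the authors' deposited tables, with filled points for an adjusted p under 0.05 and a bar at the median of each list. The immediate-early targets lie furthest left with TTX (median -2.09) and the MEF2 targets lie mostly right of 0 with BIC (median 0.51), while the 10 genes spread around 0 in both panels.

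A few genes of these lists were called for the knockdown. With so few of all genes called, the count of 0 among the 10 does not set them apart from the lists. In vehicle they were 1 of 26 MEF2 regulators, 2 of 20 MEF2 targets, 1 of 20 immediate-early genes, 1 of 30 cytoskeletal genes and 0 of 30 SRF regulators, beside 0.857% of all genes, and for the difference in TTX response 2, 2, 0, 1 and 0, beside 0.943%. No gene of these lists was called for the knockdown in TTX (0.0283% of all genes) or in BIC (0.00944%). The same held for the difference in BIC response (0.0219%). In vehicle the authors' deposited table had Camk1g higher in shRai1 (0.40, adjusted p = 0.0405) and Homer1 (-0.40, adjusted p = 2.69e-05), Rgs2 (-0.46, adjusted p = 0.00180), Egr1 (-0.54, adjusted p = 0.0126) and Gsn (-0.55, adjusted p = 0.0261) lower. The TTX response, as shRai1 minus shCtrl, was higher by the Wald test for Homer1 (0.51, adjusted p = 1.18e-04), Rgs2 (0.59, adjusted p = 0.0109) and Gsn (1.02, adjusted p = 1.06e-04), and lower for Camk1g (-0.61, adjusted p = 0.0109) and Hdac4 (-0.38, adjusted p = 0.0424). These differences share the vehicle libraries with the comparison in vehicle and are not independent of it. In vehicle 4 of 14 oligodendrocyte-lineage markers and 2 of 14 astrocyte markers were also lower in shRai1 in the authors' deposited table, and by the Wald test 6 markers of the first kind and 2 of the second had a higher TTX response in shRai1. Their part in these differences was not tested.

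The genes whose log2 changes over the 4 comparisons of a drug with vehicle were nearest to those of a gene of the set were found by Euclidean distance among 12324 genes with a mean count of at least 50. For Srf they were Mycn (distance 0.34), Lipg (0.34) and Abracl (0.42). Having been chosen by these changes, they were lower in all 4 by the authors' deposited tables, with Mycn at -1.11 and -0.72 for TTX and BIC in shCtrl. Elk3 had closer neighbours in Snhg6 (0.075), D4Ertd617e (0.11) and Suv39h2 (0.11), matched on deposited TTX changes whose sign its FPKM ratio does not share. For Mef2c they were Pde1c (0.056), Fam83a (0.064) and Tapbpl (0.067). Of the 3 genes, Srf had the largest distances to its neighbours.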

How the data were processed

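Bru-seq libraries from 16 cultures in 6 groups were analysed, and 12 ChIP-seq samples were not analysed here. The submitters' processing notes name TopHat2 2.1.0, Bowtie2 2.2.6, DESeq2 and the build mm9, with no role or order. Each of the 7 deposited comparison tables gives, per the file headers, the authors' mean normalized count (a signal averaged over libraries), log2 change with SE, Wald score, and raw and adjusted p-values. The authors' FPKM are pooled, with bounds, 1 for each condition, per the file headers. Its shRai1 columns entered only the mean over the 6 conditions used as a filter and in the count per FPKM, and were not used as values of a treatment, because across 12311 genes their ratios did not follow the deposited comparisons of the same name (Pearson r of -0.633 for TTX and 0.262 for BIC, against 0.723 and 0.759 in shCtrl).

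For shRai1 against shCtrl in vehicle the table lacks names, so 20107 genes were identified there by a mean count that no other gene has, and log2 changes closed within 1e-09. A gene was called at an adjusted p under 0.05. All 10 genes had an adjusted p-value in all 7 tables, and 1 of the 10, Mef2b, had a mean count under 50. Combined contrasts were computed from the deposited values with Python 3.11.15, pandas 2.3.3 and scipy 1.17.1, with Wald tests (two-sided) adjusted by Benjamini-Hochberg over 18241 genes, those averaging 0.1 FPKM or more. On simulated data with 200 of 18241 genes changed by a log2 change of 1, 86.5% (TTX) and 87.5% (BIC) were recovered for the differences between arms, 100% for the mean responses, and 81% (shCtrl) and 91% (shRai1) for BIC minus TTX, with at most 13 false calls. The simulated noise was drawn from the same SEs that the tests used, so this checks the code and not those SEs. The changed genes all had a mean count of at least 50. Smaller changes, such as the differences between arms seen for the 10 genes, were not simulated. No value per library was used, so no replicate could be left out, and p-values rest on the authors' model of 2 or 3 libraries a group.

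Motifs were searched in RefSeq windows (GRCm38.p6). All 10 genes matched, Mkl1 and Mkl2 through the names Mrtfa and Mrtfb, with 17 windows. The genes, the lists and the tests were chosen with earlier results of these data known. Named beside the 10 genes were, per pathway list and drug, up to 4 called genes with the largest absolute log2 change in shCtrl and a mean count of at least 50, the list genes called for the knockdown or its interactions, up to 4 per list, Rai1, and the 3 nearest genes of the 3 genes with the largest summed change. A gene named by this rule is not reported here. Genes shared by lists are Hdac9, Arc, Nr4a1 and Fhl2. Alternatives were other thresholds, other sets of genes for the adjustment, centring on the median gene, errors from the knockdown tables and FPKM ratios.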

Additional observations from a re-analysis of the deposited data

How the results depend on the processing

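Of the counts of called genes, 3 moved by more than 1.5 times. With a threshold of 0.01, TTX in shCtrl called 2 in place of 5 and BIC minus TTX in shCtrl called 4 in place of 7. With a threshold of 0.1, TTX in shRai1 called 6 in place of 3. The share of all genes called, which also depends on the threshold, was not computed at 0.01 or 0.1. These moved counts therefore cannot be compared with all genes. The other alternatives run (adjustment over all genes tested or over genes with a mean count of at least 50, centring, and errors from the knockdown tables) left every count within 1.5 times. The deposited fall of Elk3 with TTX in shCtrl turned to 0.30 and 0.29 as an FPKM ratio with pseudocounts of 0.1 and 1, and the cause was not tested. With either pseudocount the FPKM ratio also moved 11 of the 20 values by more than 1 SE, among them the called rise of Mkl1 with TTX (0.19 to 0.10 with a pseudocount of 0.1), and left 8 within it. Centring moved values of Mef2a that were not called across 0, to 0.00069 for the mean TTX response and 0.0020 for BIC minus TTX in shCtrl. No paired analysis was possible because the files hold no values per library, and leaving out each replicate was not run for the same reason. The BIC minus TTX errors are upper bounds.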

Other observations

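Normalized count per FPKM and kilobase of the authors' interval was compared as a description of how both deposited tables treat the same gene. Over 12310 genes its median was 2.07. Elk3 had 0.206, a value above that of 3.63% of genes. For TTX in shCtrl its FPKM ratio and its deposited log2 change, which was called, had opposite signs, as did those of Mef2a, Mef2d and Mkl2, which were not called. Mkl2 had 0.743 and Mef2c 1.38, while Srf had 3.00 and Mef2b 4.75.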
